A study of Homo sapiens with 4 samples.

Results

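A set of 43 genes of antigen presentation and of the interferon response was followed through RNA-Seq of SK-MEL-28, an established human melanoma cell line. The genes were listed by name for their known roles, and the list was drawn up with earlier results of these libraries known. All 43 were among the 25268 gene symbols of the table. The members comprised 5 genes of the MHC class I molecule, 8 genes that make or load its peptides, 8 genes of the MHC class II pathway, 2 regulators of MHC genes, 4 interferon-regulated transcription factors and 16 interferon-stimulated genes.

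Both lines were SK-MEL-28 cells kept in medium with the selection drug G418. The vector cells carried an empty vector, and the MYC-inducible cells carried a doxycycline-inducible MYC gene, MYC being a transcription factor that drives growth. Each line was sampled without doxycycline (Dox) and after 54 h with it, which gave 4 libraries, 1 per condition. None of the differences below can be checked against replicates, and p-values are therefore absent. Whether either line was derived from 1 clone is not given in the sources used here.

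Cells show fragments of their own proteins to CD8 T cells on MHC class I molecules. The proteasome cuts the proteins, the TAP transporter carries the peptides into the endoplasmic reticulum, and a loading complex fits them to the class I heavy chain and beta-2 microglobulin. MHC class II molecules show peptides to CD4 T cells, chiefly on professional antigen-presenting cells, and many melanomas make them as well. Interferons raise most of these genes through STAT and IRF transcription factors, which act on short promoter elements, and the same factors switch on antiviral genes.

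Expression was given as FPKM, the fragments of a gene per 1000 bases of transcript and per 1000000 mapped fragments. The FPKM values summed to between 692146 and 715495 per library, and the approximate depth was between 34900000 and 41900000 fragments. A change is the difference of log2(FPKM + 0.1) between 2 libraries. It understates the change of genes with low values. The error after ± is an approximate counting error of this difference, which covers the sampling of fragments only and leaves out differences between cultures. A gene is said to have risen or fallen when it was listed at 1 FPKM or more on average over the 4 libraries and changed at least 1.5-fold, which is 0.58 on the log2 scale. Of all symbols, 11147 reached that mean. Among the members, 37 reached it and 6 did not (NLRC5, IFIT1, IFIT2, IFI27, IFITM1 and IFITM2).

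MYC itself was at 58.3 FPKM in the vector cells without Dox and 54.8 with Dox, and at 76.5 FPKM in the MYC-inducible cells without Dox and 87.1 with Dox. With Dox it changed by 0.19 ± 0.0248 in the MYC-inducible cells and by -0.09 ± 0.0313 in the vector cells. The direction thus went with the labels, at less than 1.5-fold, in values that do not separate the introduced from the endogenous gene. MYC was already higher in the MYC-inducible cells than in the vector cells without Dox, by 0.39 ± 0.0277. That difference was larger than the change with Dox, and between the lines with Dox it was 0.67 ± 0.0288. All 8 melanocyte markers reached 1 FPKM, while the defining leukocyte marker PTPRC was listed at 0 in 3 libraries and at 0.00984 FPKM in the MYC-inducible cells with Dox. The summed FPKM of the 8 melanocyte markers was 8578, 8467, 8433 and 4666 in the vector cells without and with Dox and the MYC-inducible cells without and with Dox, and their median change was -0.72 in the MYC-inducible cells and -0.10 in the vector cells. Fibroblast markers summed to between 26.1 and 31.6 FPKM per library and keratinocyte markers to between 0.228 and 0.406 FPKM. Nearly all of the fibroblast sum was LUM, at 29.7, 27.7, 31.5 and 26.0 FPKM in the same order of libraries. The other fibroblast markers, DCN, PDGFRA, COL1A1 and COL3A1, each averaged below 1 FPKM. Melanocyte markers thus moved in the direction of the members in the MYC-inducible cells, and their part in the results was not tested.

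With Dox, 3 class I heavy chain genes, 4 class II genes, the interferon factors STAT2, IRF7 and IRF9, and the stimulated genes IFI35 and MX1 fell in the MYC-inducible cells, and no immunoproteasome or TAP gene fell. In these cells 12 of the 37 members fell (32.4%), among all genes tested 8.85% fell, and no member rose, against 5.9% of all genes. The members' median change was -0.45, with a range from -1.15 to 0.46, and the median of all genes tested was -0.03. A change below 0 was found in 31 members (83.8%) and in 53.1% of all genes. In the vector cells no member fell, against 0.44% of all genes, and 2 members rose (5.41%), CD83 and ISG15, against 0.709% of all genes. The members' median change in the vector cells was 0.07, and that of all genes was 0.01. In bulk RNA, fewer cells with a transcript and less of it in each cell cannot be told apart.

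**Figure D1:**
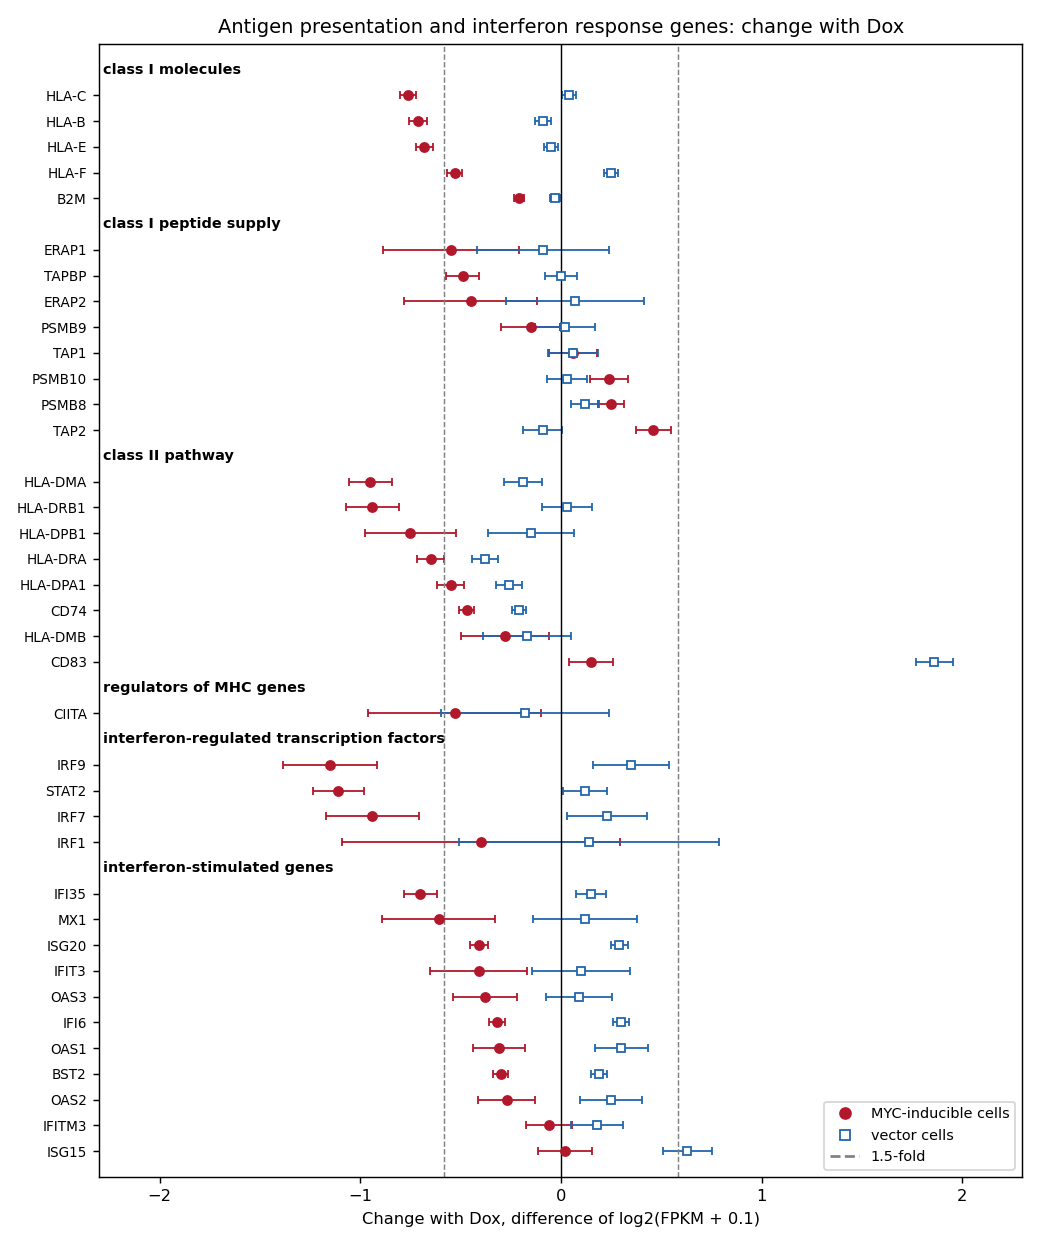
Change with Dox of the 37 members that averaged 1 FPKM or more, as the difference of log2(FPKM + 0.1) on the horizontal axis, in the MYC-inducible cells (filled red circles) and the vector cells (open blue squares), 1 library per condition. Bars are approximate 95% intervals of the counting error and dashed lines mark 1.5-fold; the red circles of the class I heavy chains, most class II genes and STAT2, IRF7 and IRF9 lie to the left, and CD83 stands apart in the vector cells at 1.86.

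The 12 members that fell were HLA-B, HLA-C, HLA-E, HLA-DRA, HLA-DRB1, HLA-DPB1, HLA-DMA, STAT2, IRF7, IRF9, IFI35 and MX1. The member nearest inside the threshold was MX1 (-0.608) and the nearest outside it was HLA-DPA1 (-0.554). At a 2-fold threshold 2 of the 37 members fell, IRF9 and STAT2, against 2.05% of all genes tested. Without the 15 members that stand in several rows of the table, which include all 10 HLA genes of the set, 5 of 22 members fell. The share of all genes was not recalculated for that subset. The median counting error of the 37 members was 0.0591 in the MYC-inducible cells, with a range from 0.0127 to 0.353. There the change of 33 members lay outside the 95% interval of the counting error around 0, and in the vector cells 21 did.

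Short promoter sequences of 7 members are shown first, because the changes are given below by the presence of the interferon response element. They come from RefSeq on GRCh38.p14, in windows from 250 bases before to 50 bases after each annotated start, and 35 of the 43 members had a window. No window was found for HLA-E, HLA-DRA, CIITA, NLRC5, IRF7, IFIT2, IFITM2 and OAS2. The windows were searched on both strands for the core of the interferon response element (GAAA, any 2 bases, GAAA), for TTCNNNGAA, the interferon gamma-activated site, and for the E-box CACGTG, to which MYC can bind. Each sequence runs 5′ to 3′ on the strand of its gene, and capitals mark the matches. IRF9, IFI35 and MX1 are the members that fell whose windows held a match, IRF9 with an E-box before a gamma-activated site, IFI35 with a gamma-activated site, and MX1 with a response element core on the opposite strand that overlaps a gamma-activated site.
IRF9: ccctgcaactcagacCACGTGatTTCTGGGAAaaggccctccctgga
IFI35: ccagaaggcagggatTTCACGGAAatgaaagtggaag
MX1: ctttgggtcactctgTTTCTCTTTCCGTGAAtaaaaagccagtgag
In GRCh38.p14 these lie at chr14:24161179-24161225, chr17:43006747-43006783 and chr21:41431839-41431884, all on the plus strand. The IRF9 stretch covers the bases from 86 to 40 before the start, that of IFI35 from 37 to 1, and that of MX1 from 211 to 166.

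The next 4 sequences were chosen after their values were seen, to set beside them members with the response element core that did not fall. TAP1 holds overlapping cores on the opposite strand, TAP2 a single core, ISG15 overlapping cores, and IFI6 a repeated core followed by another.
TAP1: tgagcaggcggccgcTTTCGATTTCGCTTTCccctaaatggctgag
TAP2: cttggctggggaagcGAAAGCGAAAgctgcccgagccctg
ISG15: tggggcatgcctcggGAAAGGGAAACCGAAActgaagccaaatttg
IFI6: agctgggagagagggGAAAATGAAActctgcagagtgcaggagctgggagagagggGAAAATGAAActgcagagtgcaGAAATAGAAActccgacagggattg
These stretches lie at chr6:32853808-32853853 and chr6:32838773-32838812 on the minus strand for TAP1 and TAP2, at chr1:1013369-1013414 on the plus strand for ISG15, and at chr1:27672261-27672363 on the minus strand for IFI6.

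A response element core stood in the windows of 20 of 35 members (57.1%), in 3.57% of all 35116 windows and in 3.79% of the 8381 genes tested that had a window. Among the members it was found in 7 of 8 peptide supply genes, 11 of 13 interferon-stimulated genes and 2 of 4 class I genes (HLA-F and B2M), and in none of 7 class II genes or 3 interferon factors. The gamma-activated site was in 10 members (28.6%), in 7.66% of all windows and in 8.22% of the genes tested that had a window. The E-box was in 2 members, IRF9 and ISG20 (5.71%), in 7.26% of all windows and in 13.2% of those genes. A gene can have several windows, so the shares of genes are the ones to set beside the members. A match is a run of letters and not a known binding site, and the absence of a match says only that these letters are not in this window.

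In the MYC-inducible cells the median change was closer to 0 in members with the core than in members without it. Among the 17 tested members with a core in the window, 1 fell (MX1) and the median change was -0.32. Among the 15 tested members with a window but no core, 8 fell and the median was -0.70. In the vector cells the medians were 0.10 with and 0.03 without the core. Tested genes outside the set had a median of -0.03 with the core (301 genes, 10.3% fell) and also of -0.03 without it (8048 genes, 8.01% fell). The members with and without the core also belong to different role groups, so the core and the role cannot be told apart.

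**Figure D2:**
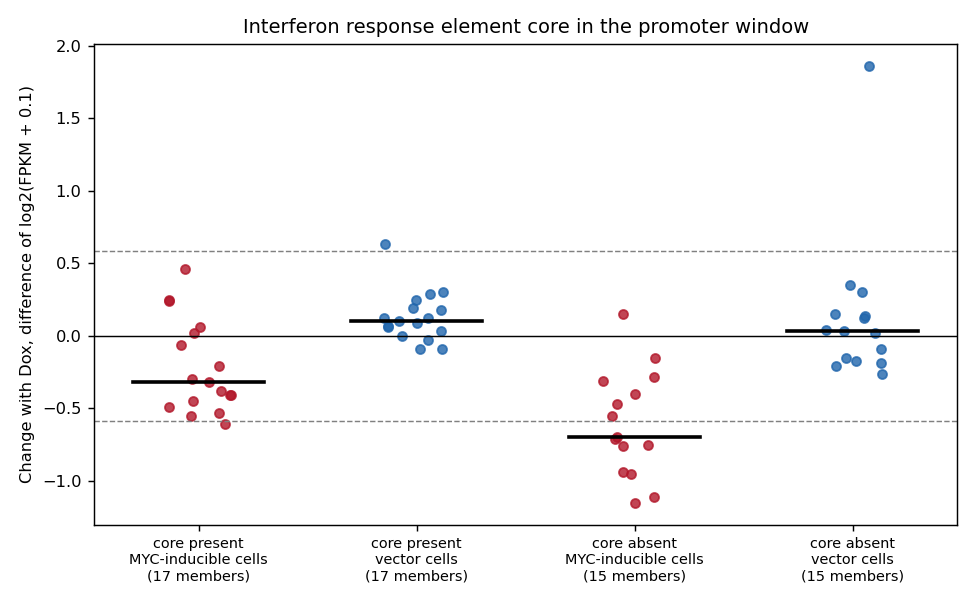
Change with Dox, as the difference of log2(FPKM + 0.1) on the vertical axis, of the 17 tested members whose promoter window held the interferon response element core and the 15 whose window did not, in the MYC-inducible cells (red) and the vector cells (blue). Each point is 1 gene, horizontal bars are medians and dashed lines mark 1.5-fold; in the MYC-inducible cells the medians are -0.32 with and -0.70 without the core.

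Of the class I heavy chain genes, HLA-B, HLA-C and HLA-E fell in the MYC-inducible cells, and HLA-F and the light chain gene B2M did not. HLA-C, a classical class I heavy chain that also engages natural killer cell receptors, was at 211 FPKM in the vector cells without Dox and 216 with Dox, and at 218 FPKM in the MYC-inducible cells without Dox and 128 with Dox. The library of the MYC-inducible cells with Dox was the low one, and the other 3 lay close to each other. The change of HLA-C was -0.76 ± 0.0204 in the MYC-inducible cells and 0.04 ± 0.0185 in the vector cells. HLA-B, the other classical heavy chain of the set, was at 184 and 172 FPKM in the vector cells without and with Dox and at 171 and 105 FPKM in the MYC-inducible cells, a change of -0.71 ± 0.0228 there. HLA-E, which presents leader peptides of other class I chains to natural killer cells, was at 131 and 127 FPKM in the vector cells and at 127 and 78.8 FPKM in the MYC-inducible cells (-0.68 ± 0.0204). All 3 genes had a low library, the MYC-inducible cells with Dox, and 3 libraries near each other.

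HLA-F, a non-classical class I gene, was at 287 FPKM in the vector cells without Dox and 340 with Dox, and at 253 and 175 FPKM in the MYC-inducible cells. Its change was -0.53 ± 0.0197 in the MYC-inducible cells, short of 1.5-fold, and 0.25 ± 0.0168 in the vector cells, so the lines moved apart. B2M, the light chain that every class I molecule needs, had the highest level of all members, with 734 and 717 FPKM in the vector cells and 733 and 634 FPKM in the MYC-inducible cells (-0.21 ± 0.0127). The summed FPKM of HLA-B, HLA-C, HLA-E and HLA-F divided by that of B2M was 1.11 and 1.19 in the vector cells without and with Dox, and 1.05 and 0.767 in the MYC-inducible cells. The ratio of heavy chain to light chain RNA was thus lowest in the MYC-inducible cells with Dox. The median change of the 5 class I genes was -0.68 in the MYC-inducible cells and -0.03 in the vector cells. HLA genes are highly variable between people, and fragments of the cell line's own alleles or of related HLA genes may be lost or shared when they are aligned to a reference, so levels compared between HLA genes are uncertain.

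Of the 8 genes that supply peptides to class I molecules, none rose or fell in either line, and their median change was -0.05 in the MYC-inducible cells and 0.02 in the vector cells. TAP2, a subunit of the peptide transporter, was at 8.36 and 7.83 FPKM in the vector cells and at 7.92 and 10.96 FPKM in the MYC-inducible cells without and with Dox. Its change of 0.46 ± 0.0439 was the highest of the tested members in the MYC-inducible cells. TAP1, the other subunit, was at 10.3, 10.8, 10.7 and 11.1 FPKM in the same order of libraries, with no value standing apart.

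The immunoproteasome subunits replace constitutive subunits of the proteasome when interferon is present. PSMB8 was the most abundant, at 79.9 and 86.6 FPKM in the vector cells and 78.9 and 94.0 FPKM in the MYC-inducible cells (0.25 ± 0.0326). PSMB10 was at 57.7 and 58.8 FPKM in the vector cells and 54.4 and 64.3 FPKM in the MYC-inducible cells (0.24 ± 0.0478). PSMB9 was at 24.6, 24.98, 24.0 and 21.6 FPKM in the same order. Against the subunits they replace, the FPKM ratio of PSMB8 to PSMB5 was 0.409 without and 0.436 with Dox in the MYC-inducible cells. That of PSMB10 to PSMB7 was 0.17 and 0.223, and that of PSMB9 to PSMB6 was 0.0919 and 0.0747. In the vector cells the ratios, in the same order, were 0.39 and 0.421, 0.183 and 0.178, and 0.0896 and 0.0863. The ratio of PSMB8 to PSMB5 was thus higher with Dox in both lines. The subunits thus did not share a direction against their constitutive counterparts. The annotated exons of PSMB8 and PSMB9 overlap on opposite strands. Whether the libraries kept the strand is not given in the sources used here, and without it fragments of the shared bases cannot be assigned to either gene.

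TAPBP, the tapasin chaperone that bridges the transporter and the class I molecule, was at 21.7 and 21.7 FPKM in the vector cells and at 22.9 and 16.3 FPKM in the MYC-inducible cells (-0.49 ± 0.0412). The trimming peptidases ERAP1 and ERAP2 had changes of -0.55 ± 0.173 and -0.45 ± 0.169 in the MYC-inducible cells. ERAP2, the lowest of the peptide supply genes, was at 2.60, 2.74, 3.14 and 2.27 FPKM in the vector cells without and with Dox and the MYC-inducible cells without and with Dox. Its highest value was that of the untreated MYC-inducible cells. The exons of ERAP1 overlap those of CAST.

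Of the class II pathway, 4 of 8 members fell in the MYC-inducible cells and none fell in the vector cells. HLA-DMA, a chain of the DM molecule that exchanges peptides on class II, was at 59.6 and 52.2 FPKM in the vector cells without and with Dox and at 58.1 and 30.1 FPKM in the MYC-inducible cells, a change of -0.95 ± 0.0547. HLA-DRB1, the polymorphic beta chain of HLA-DR, was at 23.1 and 23.6 FPKM in the vector cells and at 26.5 and 13.7 FPKM in the MYC-inducible cells (-0.94 ± 0.0681). Both were at about the same level in the other 3 libraries and were lowest in the MYC-inducible cells with Dox. HLA-DPB1, the beta chain of HLA-DP, was at 7.19, 6.49, 7.36 and 4.34 FPKM in the same order of libraries (-0.75 ± 0.116). HLA-DRA, the alpha chain of HLA-DR, was at 97.4 and 74.9 FPKM in the vector cells and at 94.2 and 60.0 FPKM in the MYC-inducible cells. Its change was -0.65 ± 0.0342 in the MYC-inducible cells and -0.38 ± 0.0334 in the vector cells, so the level was lower with Dox in both lines.

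CD74, the invariant chain that escorts class II molecules, was the most abundant class II pathway gene, at 321 and 277 FPKM in the vector cells and 287 and 207 FPKM in the MYC-inducible cells. Its changes were -0.47 ± 0.0184 in the MYC-inducible cells and -0.21 ± 0.0173 in the vector cells. HLA-DPA1 had changes of -0.55 ± 0.0341 and -0.26 ± 0.033, and HLA-DMB had -0.28 ± 0.112 and -0.17 ± 0.112. Without CD83, the 7 class II members had a median change of -0.65 in the MYC-inducible cells and of -0.19 in the vector cells, where 6 of the 7 were below 0. HLA-DPA1 shares exon bases with HLA-DPB1, and HLA-DMA with BRD2. The summed FPKM of 9 leukocyte markers was 1.66, 2.03, 2.32 and 1.23 in the vector cells without and with Dox and the MYC-inducible cells without and with Dox. Only LYZ among them reached a mean of 1 FPKM, and MS4A1 was listed at 0 in all 4 libraries. The sum was thus lowest in the library in which most class II genes were lowest, and its part in their change was not tested.

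CD83, a surface protein known from mature dendritic cells that keeps class II molecules at the surface, rose in the vector cells. It was at 13.3 FPKM in the vector cells without Dox and 48.7 with Dox, and at 13.3 and 14.8 FPKM in the MYC-inducible cells without and with Dox. The vector cells with Dox was the high library, and the other 3 lay together. Its change was 1.86 ± 0.0473 in the vector cells, the largest of any tested member in any direction, and 0.15 ± 0.0558 in the MYC-inducible cells. Because 1 library carries this rise, it cannot be told apart from a difference of that culture or library.

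**Figure D3:**
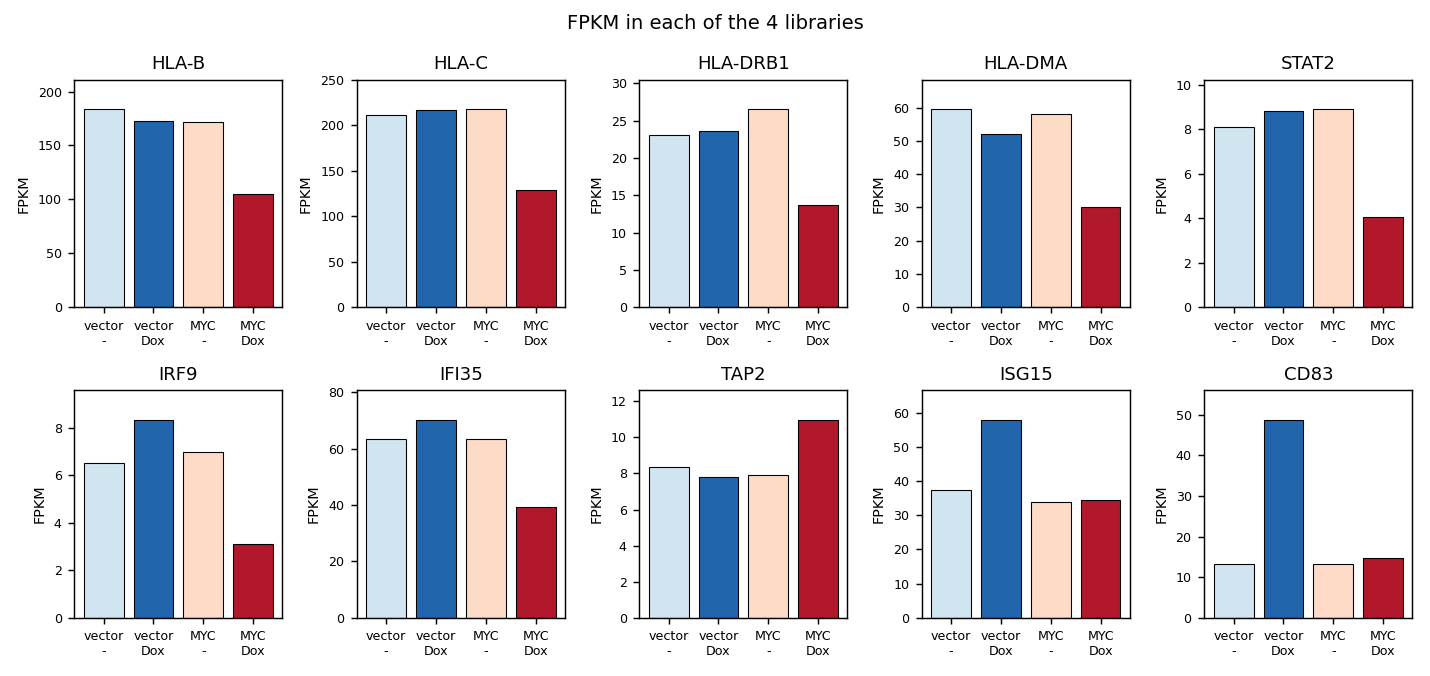
FPKM of 10 members in each of the 4 libraries, with a separate vertical axis from 0 for each gene. Bars stand for single libraries, in the order vector cells without and with Dox and MYC-inducible cells without and with Dox; HLA-B, HLA-C, HLA-DRB1, HLA-DMA, STAT2, IRF9 and IFI35 are lowest in the last library, TAP2 is highest there, and ISG15 and CD83 are highest in the vector cells with Dox.

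Of the regulators of MHC genes, CIITA, the master regulator of class II genes, was at 1.504 and 1.316 FPKM in the vector cells without and with Dox and at 1.46 and 0.979 FPKM in the MYC-inducible cells. The change of -0.53 ± 0.22 in the MYC-inducible cells rests on about 59 fragments in the library with Dox, at the 1539 bases used for its length. NLRC5, the corresponding regulator of class I genes, was at 0.461, 0.485, 0.532 and 0.581 FPKM in the same order of libraries, below the mean at which changes were read. Exons of CIITA overlap those of DEXI.

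The interferon-regulated transcription factors had the lowest median of all member groups, -1.03 in the MYC-inducible cells against 0.18 in the vector cells, and 3 of 4 fell. IRF9, the DNA-binding part of the complex that carries the type I interferon signal, was at 6.54 FPKM in the vector cells without Dox and 8.34 with Dox, and at 6.97 and 3.09 FPKM in the MYC-inducible cells. It had the lowest change of the tested members, -1.15 ± 0.12, and a change of 0.35 ± 0.0962 in the vector cells. STAT2, its partner in that complex, was at 8.09 and 8.79 FPKM in the vector cells and at 8.89 and 4.07 FPKM in the MYC-inducible cells (-1.11 ± 0.0644). IRF7, which drives the production of type I interferon, was at 5.08 and 5.96 FPKM in the vector cells and at 5.34 and 2.73 FPKM in the MYC-inducible cells (-0.94 ± 0.119). All 3 were lowest in the MYC-inducible cells with Dox and highest or nearly so in the vector cells with Dox.

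IRF1, the factor induced by interferon gamma, was the lowest of the group, at 1.76, 1.95, 1.69 and 1.26 FPKM in the vector cells without and with Dox and the MYC-inducible cells without and with Dox. Its change of -0.40 ± 0.353 in the MYC-inducible cells lay within the 95% interval of the counting error around 0. That error was calculated with a transcript length of 501 bases, and a longer transcript would give more fragments and a smaller error.

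The interferon-stimulated genes had a median change closer to 0 than the factors. Among the 11 that reached 1 FPKM, 2 fell, IFI35 and MX1, and the median change was -0.32 in the MYC-inducible cells and 0.19 in the vector cells. IFI35, an interferon-induced leucine zipper protein, was at 63.3 and 70.2 FPKM in the vector cells without and with Dox and at 63.6 and 39.2 FPKM in the MYC-inducible cells (-0.70 ± 0.0424). MX1, a GTPase that blocks influenza and other viruses, was at 2.06 and 2.26 FPKM in the vector cells and at 2.03 and 1.30 FPKM in the MYC-inducible cells (-0.61 ± 0.144). Both had their lowest value in the MYC-inducible cells with Dox. MX1 had the lowest mean level of the stimulated genes that reached 1 FPKM.

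IFI6, an inhibitor of cell death, had the highest level of the stimulated genes, at 322 and 397 FPKM in the vector cells and at 336 and 269 FPKM in the MYC-inducible cells. Its change was -0.32 ± 0.0206 in the MYC-inducible cells and 0.30 ± 0.0197 in the vector cells. BST2, the tetherin that holds budding virus at the membrane, was at 271 and 308 FPKM in the vector cells and 304 and 246 FPKM in the MYC-inducible cells. ISG20, an RNA exonuclease, was at 189 and 232 FPKM in the vector cells and 195 and 147 FPKM in the MYC-inducible cells, with changes of 0.29 ± 0.0213 and -0.41 ± 0.0227. These 3 abundant genes had their highest value in the vector cells with Dox and their lowest in the MYC-inducible cells with Dox.

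ISG15, a ubiquitin-like protein attached to others after interferon, was at 37.5 FPKM in the vector cells without Dox and 57.9 with Dox, and at 33.9 and 34.4 FPKM in the MYC-inducible cells. It rose in the vector cells (0.63 ± 0.062) and had a change of 0.02 ± 0.0685 in the MYC-inducible cells. The OAS genes, which make the activator of the antiviral ribonuclease RNase L, had changes of -0.31 ± 0.0665 (OAS1), -0.27 ± 0.0726 (OAS2) and -0.38 ± 0.0816 (OAS3) in the MYC-inducible cells. In the vector cells theirs were 0.30 ± 0.0676, 0.25 ± 0.0789 and 0.09 ± 0.0849. IFIT3, of the IFIT family that binds viral RNA, was at 2.72, 2.93, 3.04 and 2.26 FPKM in the vector cells without and with Dox and the MYC-inducible cells without and with Dox. Its change in the MYC-inducible cells was -0.41 ± 0.124. The OAS genes and IFIT3 were lowest with Dox in the MYC-inducible cells, apart from OAS2, whose lowest value was that of the vector cells without Dox.

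The IFITM proteins hinder the entry of viruses into cells, and their genes are close copies of each other whose reads may be split. IFITM3 was at 48.3, 54.8, 59.3 and 56.8 FPKM in the same order of libraries. IFITM1 was at 0.263, 0.738, 0.714 and 0.627 FPKM, and IFITM2 was listed at 0 in all 4 libraries. The other members under 1 FPKM were IFIT1 at 0.404, 0.508, 0.422 and 0.482 FPKM, IFIT2 at 0.845, 0.728, 0.838 and 0.651 FPKM, and IFI27 at 0.889, 1.18, 1.09 and 0.287 FPKM. For IFI27 the value in the MYC-inducible cells with Dox stands for about 6.93 fragments, and it was the low library of the 4. IFIT2 and IFIT3 share exon bases with LIPA.

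The interferon factors and stimulated genes had medians of opposite sign in the 2 lines. Of their 15 tested members, all 15 were above 0 in the vector cells, as were 54.2% of all genes tested, with a median of 0.19, and only ISG15 rose. In the MYC-inducible cells 14 of the 15 were below 0, as were 53.1% of all genes, with a median of -0.40, and 5 fell. ISG15 was above 0 in both lines. IRF1 lay within the 95% interval of its counting error around 0 in both, with the short transcript length used for it. IFIT3, MX1 and OAS3 also lay within that interval in the vector cells, and ISG15 and IFITM3 did in the MYC-inducible cells. Of 21 interferon-stimulated genes outside the set, 10 were above and 11 below 0 in the vector cells. In the MYC-inducible cells 6 of them were above and 15 below 0. The shared direction in the vector cells thus did not extend to them. Among all 37 members, 19 were above 0 in the vector cells and below 0 in the MYC-inducible cells, as were 26.4% of all genes tested. Where the vector change was taken from the MYC-inducible change, 17 members were lower by at least 1.5-fold (45.9%), against 9.72% of all genes, and none was higher, against 5.85%. The median of this difference was -0.52, and it was lowest for CD83 (-1.71), IRF9 (-1.49) and STAT2 (-1.23). Whether the lines differ in their response was not tested, since each change rests on 1 pair of libraries.

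Before Dox, no member differed 1.5-fold between the untreated MYC-inducible cells and the untreated vector cells, against 0.592% of all genes that were higher and 0.287% that were lower. These shares are so low that the count says nothing particular about the members. The median size of the members' difference was 0.07, as it was for all genes, and the largest was 0.38 (OAS2). In 34 of the 37 members the change with Dox in the MYC-inducible cells was larger in size than this difference between the untreated lines, and in 33 it was larger than the change in the vector cells. Over all genes tested the median size was 0.24 with Dox in the MYC-inducible cells, 0.07 between the untreated lines and 0.07 in the vector cells. These 2 counts were not made over all genes, so they cannot be read as particular to the members. Between the lines with Dox, 15 members were lower in the MYC-inducible cells (40.5%), against 8.62% of all genes, and none was higher, against 6.5%. This comparison shares its MYC-inducible library with the one above. The MYC-inducible cells with Dox had the lowest of the 4 values in 29 of the 37 members and in 42.9% of all genes tested.

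Other genes of the same pathways, listed by role, had list medians closer to 0 than that of the members. Among all genes tested, 8.85% fell and 5.9% rose in the MYC-inducible cells. These shares belong beside the counts below, and in lists this small a count near them says nothing particular about the genes. The 6 constitutive proteasome counterparts and activators had a median change of 0.11 in the MYC-inducible cells, and none rose or fell. Of 10 tested class I chaperones and related molecules, 2 fell and none rose, with a median of -0.35. They were TAPBPL, a peptide editor related to tapasin, at 3.57 FPKM without and 2.26 with Dox, and ULBP2, a ligand of the killer cell receptor NKG2D, at 6.30 and 3.81 FPKM. All 10 were below 0, as were 53.1% of all genes tested.

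Of 15 tested companions of class II, 3 fell and 1 rose, against 8.85% and 5.9% of all genes, and the median was -0.01. HLA-DQA1 was at 1.69 and 1.06 FPKM in the vector cells without and with Dox and at 1.62 and 0.612 FPKM in the MYC-inducible cells (-1.27 ± 0.294), and it also fell in the vector cells (-0.63). HLA-DRB5, a close relative of HLA-DRB1, was at 12.4 FPKM without and 6.503 with Dox in the MYC-inducible cells (-0.92 ± 0.0974). CTSS, the cathepsin that trims the invariant chain, was at 2.84 and 1.69 FPKM (-0.71 ± 0.11). HLA-DOB, a chain of the DO molecule that restrains DM, was at 0.772 FPKM without and 2.16 with Dox in the MYC-inducible cells (1.37 ± 0.235), against 0.829 and 1.06 FPKM in the vector cells. HLA-DOB thus moved against the class II members.

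Of 16 tested interferon receptor and signalling genes, 3 fell and 1 rose, against 8.85% and 5.9% of all genes, with a median of -0.25. IFNGR2, a chain of the interferon gamma receptor, was at 66.0 FPKM without and 43.9 with Dox in the MYC-inducible cells (-0.59 ± 0.0341). IL10RB, a chain shared by the receptors of interferon lambda and interleukin-10, was at 15.6 and 10.3 FPKM (-0.59 ± 0.065). SOCS1, a feedback inhibitor of interferon signalling, was at 1.06 and 0.586 FPKM (-0.75 ± 0.292). PTPN2, a phosphatase that restrains the same signalling, rose from 8.18 to 13.6 FPKM (0.73 ± 0.0778). Receptor chains and inhibitors are thus both among the genes that moved.

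Of 9 tested nucleic acid sensing genes, 1 fell, against 8.85% of all genes, and the median was -0.22. All 9 were below 0, as were 53.1% of all genes. The gene that fell was TMEM173, which encodes the DNA-sensing adaptor STING, at 8.65 FPKM without and 4.82 with Dox in the MYC-inducible cells. Of 21 other interferon-stimulated genes, CMPK2 (-0.69 ± 0.136) and HERC6 (-0.64 ± 0.151) fell and none rose in the MYC-inducible cells. That count is near the share of all genes that fell (8.85%), so it says nothing particular about these genes. Their median was -0.10 in the MYC-inducible cells and -0.04 in the vector cells. These genes thus had smaller changes at the median than the 11 stimulated genes of the set in both lines. The 10 interferon genes summed to 0.0344, 0.0593, 0.0228 and 0 FPKM in the vector cells without and with Dox and the MYC-inducible cells without and with Dox, and 7 of them were listed at 0 in all 4 libraries.

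**Figure D4:**
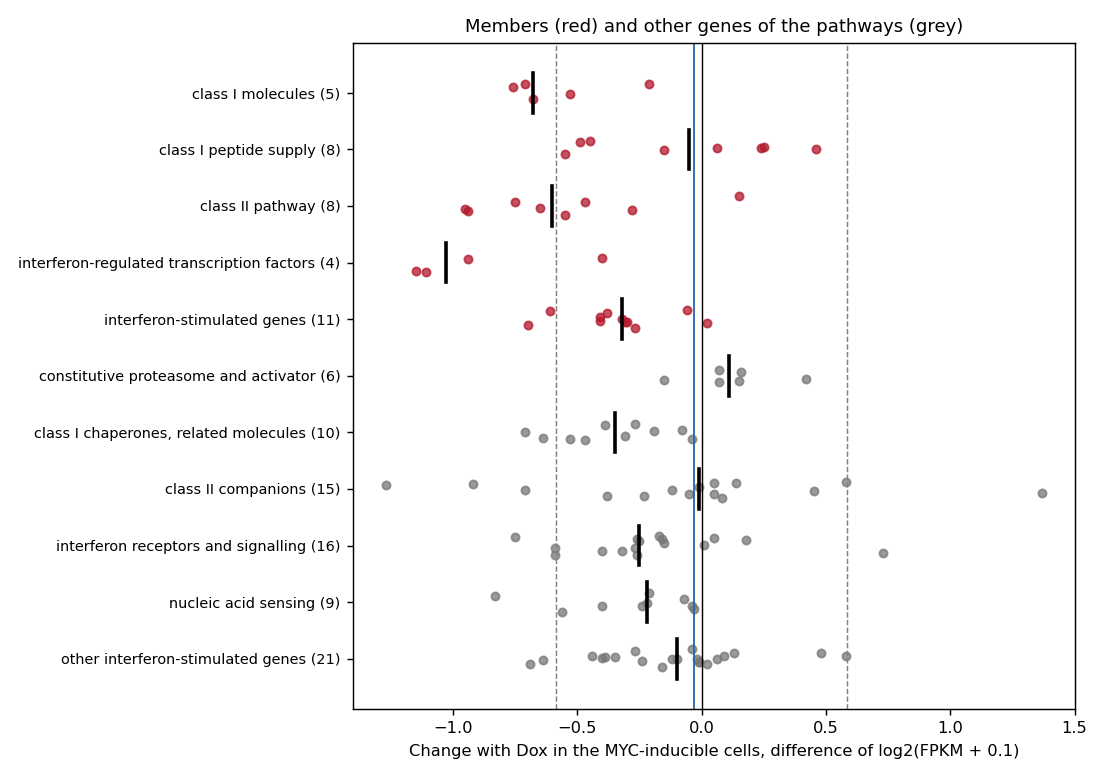
Change with Dox in the MYC-inducible cells, as the difference of log2(FPKM + 0.1) on the horizontal axis, of the tested members by role (red) and of the other genes of the same pathways (grey), with the number of genes in brackets. Each point is 1 gene, black bars are medians, the blue line is the median of all genes tested (-0.03) and dashed lines mark 1.5-fold; the median is -1.03 for the interferon factors and 0.11 for the constitutive proteasome genes.

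Most of the antigen presentation genes lie in the MHC region of chromosome 6, which in GRCh37 runs here from the start of HLA-F (29690552) to the end of TAPBP (33282061). Of the 94 tested genes in this interval, the 15 members had a median change of -0.55 in the MYC-inducible cells, and 7 fell. The 79 other genes had a median of -0.07, 11 fell and 3 rose. Among all genes tested, 8.85% fell and 5.9% rose. The cluster of TAP2, PSMB8, PSMB9 and TAP1 lies between class II genes, within the bases from 32789610 to 32827628, and none of its 4 genes fell. HLA-DMB starts at 32902406 and HLA-DMA at 32916390, beyond this cluster, while HLA-DOB ends at 32788243, just before TAP2 and on the same minus strand. HLA-DOB, which rose, and TAP2, with a change of 0.46, are thus neighbours, and transcripts that run from TAP2 into HLA-DOB cannot be told apart from HLA-DOB's own in FPKM values.

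**Figure D5:**
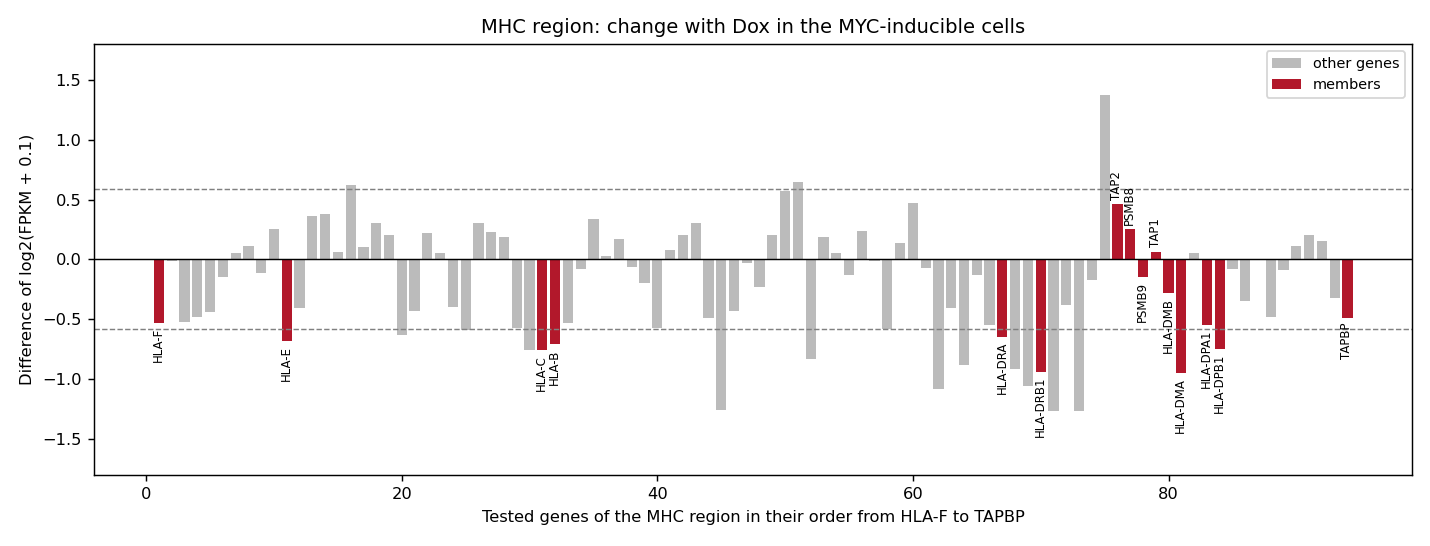
Change with Dox in the MYC-inducible cells, as the difference of log2(FPKM + 0.1) on the vertical axis, of the 94 tested genes of the MHC region in their order from HLA-F to TAPBP. Each bar is 1 gene, members are red and named and other genes grey, and dashed lines mark 1.5-fold; TAP2, PSMB8, PSMB9 and TAP1 lie together between class II genes with lower values, and the grey bar beside TAP2 is HLA-DOB at 1.37.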

How the data were processed

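RNA from 4 cultures was sequenced, 1 library per condition. Per the submitters' processing notes, TopHat2 2.0.14, Cufflinks and the build hg19 (GRCh37) were used, and the authors deposited FPKM values for each gene symbol. The annotation is not given in the sources used here. Of its 27032 rows, 1 carried no symbol and was dropped, and rows of the 609 repeated symbols were added up. For 15 members this joined 108 rows, of which each member had 1 above 0.

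FPKM values are not counts, so no count model was fitted. Changes were differences of log2(FPKM + 0.1), read for genes that averaged 1 FPKM or more, with 1.5-fold as the threshold. Depth was estimated from 198 genes whose low values are whole multiples of 1 fragment's worth, and counting errors from this depth and transcript lengths of GENCODE release 44 on GRCh37. These are approximate.

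The members and lists were chosen with earlier results of these data known. By rule, all 4 values are given for members past 1.5-fold and for the highest and lowest of each group, and at most 4 genes of each other list are named. Alternatives were other pseudocounts, filters, scalings, thresholds and references. The calculations were tested on simulated data. The work was done in Python 3.11.15 with pandas 2.3.3 and numpy 2.4.6, and matplotlib 3.10.9 drew the plots.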

Additional observations from a re-analysis of the deposited data

Results flagged for a closer look

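Of the 12 members that fell in the MYC-inducible cells, 7 had a change above 0 in the vector cells. For HLA-DRB1 (0.03), MX1 (0.12) and HLA-C, the vector change lay within the 95% interval of its counting error around 0. For IRF9, STAT2, IRF7 and IFI35 it lay outside, which is why these are given here. With the vector change subtracted, their MYC-inducible change was -1.49 for IRF9, -1.23 for STAT2, -1.17 for IRF7 and -0.84 for IFI35. For HLA-C this difference was -0.80. Its vector change was 0.04 after rounding, with a counting error of 0.0185, and lay just inside the interval. The medians of 2 groups also had opposite signs in the lines, and the median difference was -1.20 for the 4 interferon-regulated transcription factors and -0.60 for the 11 interferon-stimulated genes. With 1 library per condition, whether the lines differ was not tested.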

How the results depend on the processing

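Of 172 recalculated summary values, 165 were close to those given above. Medians near 0 changed sign, from -0.05 to 0.06 for the peptide supply genes with a filter at 5 FPKM, and from -0.01 for the class II companions to 0.02 with that filter, 0.03 with the median of ratios and 0.02 with the vector cells with Dox as reference. The members that fell in the MYC-inducible cells numbered 2 instead of 12 at a 2-fold threshold, against 2.05% of all genes tested. They numbered 5 of 22 with symbols with several rows left out, an alternative chosen after seeing the data that removes 15 members. The members that rose in the vector cells numbered 1 instead of 2 at a 2-fold threshold, against 0.251% of all genes tested. The class I median was -0.73 after rescaling to the same sum, -0.64 with the median of ratios and -0.58 as a mean, and the class II median was -0.49 with the vector cells with Dox as reference. Against that reference the change of CD83 was reversed, at -1.71. Rescaling to the same sum moved the median of all genes to -0.07, with 4.71% risen and 10.3% fallen, and the median of ratios moved it to 0.02, with 7.26% risen and 7.58% fallen. No paired analysis was possible because there is only 1 library per condition, and no library could be left out. Of the members above 0, IFITM1, IFI27 and IRF1 rest on the fewest fragments and have the largest counting errors, as calculated with the transcript lengths used here.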
